A study of Mus musculus with 4 samples.

Results

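NKX2.2 is a homeodomain transcription factor of the pancreatic islet that represses many of its targets by recruiting corepressor proteins. Genes of Groucho and chromatin corepressors are described here by whether NKX2.2 binding was called in or near them. The set has 10 genes: the Groucho genes Tle1, Tle2, Tle3, Tle4 and Tle6, the histone deacetylase genes Hdac1 and Hdac2, and the DNA methyltransferase genes Dnmt1, Dnmt3a and Dnmt3b. They were chosen by name, for what their proteins do, out of 21883 annotated protein-coding genes, with earlier results of these data known. NKX2.2 ChIP-seq was done in alphaTC6 cells, a mouse line of glucagon-producing alpha cells with the genotype WT, with 2 ChIP samples and 2 input samples. Input is DNA that was not enriched with the antibody. No treatment, time or age is labelled, and the line lacks the other cells of an islet.

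The measurement is the authors' list of 7384 peak summits, where a summit is the base of strongest enrichment in a peak called against input. Each summit has a score, taken as the −log10 of its MACS2 q-value, and the scores ran from 2.03 to 1648 with a median of 13.7. All 4 samples share this 1 list, so the depth per library is unknown, no value below has a replicate error and no test between samples was possible. A missing summit shows only that no peak was called. Cell identity could not be checked against expression of marker genes, which ChIP-seq does not measure.

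TLE proteins, the mammalian relatives of Drosophila Groucho, do not bind DNA themselves. They are brought to it by transcription factors, NKX2.2 among them, which contacts them through its TN domain, and they assemble along the template with histone deacetylases. HDAC1 and HDAC2 remove acetyl groups from histones and sit in the SIN3, NuRD and CoREST complexes. DNMT3A and DNMT3B place new methyl groups on CpG sites, and DNMT1 copies the pattern after replication. In beta cells NKX2.2 is known to act with TLE3, HDAC1 and DNMT3A in gene repression.

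NKX2.2 summits were found in the gene or within 10 kb for 7 of the 10 genes, against 25.8% of all protein-coding genes. Every TLE gene of the set had one, as did Dnmt3a and Dnmt1, while Hdac1, Hdac2 and Dnmt3b had none. For Tle2 these were summits inside Tle6 or nearest to Tle5. Tle7, a Groucho gene outside the set, had none within 10 kb. Widening the distance to 50 kb added no gene to the 7, although 43.8% of all protein-coding genes had a summit by then. Inside the gene itself, 6 of the 10 had a summit, against 13.4% of all protein-coding genes. In all, 13 distinct summits lay within 50 kb of the set, 11 of them within 10 kb and 8 inside a gene of the set. These are counts for chosen genes, and whether they exceed what such genes would show by chance was not tested.

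**Figure D1:**
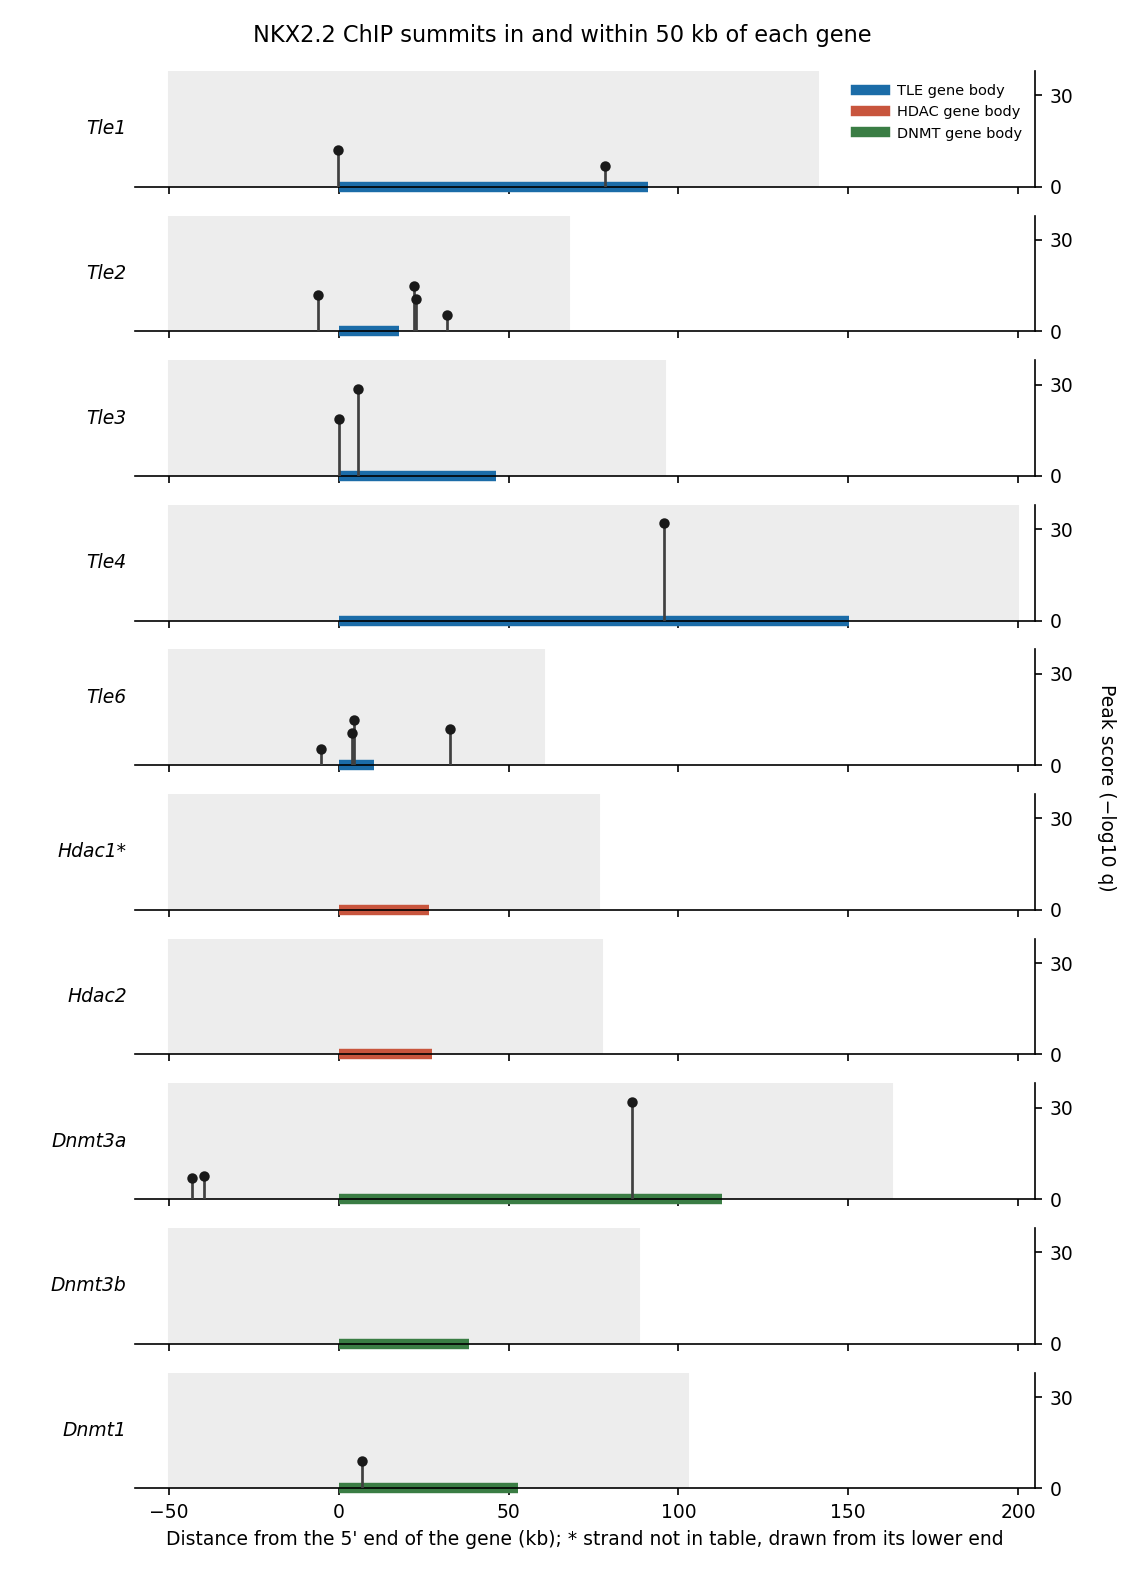
Positions of NKX2.2 ChIP summits at each of the 10 genes. The horizontal axis is the distance in kb from the 5′ end of the gene (for Hdac1, whose strand was not known here, from its lower coordinate), the coloured bar is the gene, the grey area reaches 50 kb beyond it, and each stem is a summit whose height is its peak score. The Tle2 and Tle6 panels show the same 4 summits from opposite strands, the Hdac1, Hdac2 and Dnmt3b panels are empty, and the tallest stem is the summit in Tle4 with a score of 32.0.

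RefSeq promoter windows on GRCm38.p6, from 250 bases before a start site to 50 after it, were matched for 9 of the 10 genes and gave 15 windows. Hdac1 has no entry. Genes with several start sites have several windows. The Dnmt3a windows at chr12:3806730-3807029 and chr12:3806910-3807209 overlap, so the 15 are not all separate stretches of sequence. The 4 windows shown first belong to the start sites at which a summit was nearest, and the Dnmt3b window is shown as a start site with no summit near it. Each is written 5′ to 3′ on the gene's own strand, and the start site is base 251. Capitals mark every match, on either strand, to AAGTG or TNAAGTG (the core bound by the NKX2 family), to GGGTGTGG (a KLF4 motif) or to GGGCGGG (the GC box of SP and KLF factors). TNAAGTG contains AAGTG, so each of its matches is also a match to the shorter core.
Tle1, chr4:72200844-72201143, minus strand: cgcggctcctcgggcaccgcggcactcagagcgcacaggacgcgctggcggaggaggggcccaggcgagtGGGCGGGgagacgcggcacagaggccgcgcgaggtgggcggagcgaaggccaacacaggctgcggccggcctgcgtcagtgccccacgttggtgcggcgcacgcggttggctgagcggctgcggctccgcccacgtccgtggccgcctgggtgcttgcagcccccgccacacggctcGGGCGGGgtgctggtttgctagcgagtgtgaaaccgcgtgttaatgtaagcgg
Tle3, chr9:61372116-61372415, plus strand: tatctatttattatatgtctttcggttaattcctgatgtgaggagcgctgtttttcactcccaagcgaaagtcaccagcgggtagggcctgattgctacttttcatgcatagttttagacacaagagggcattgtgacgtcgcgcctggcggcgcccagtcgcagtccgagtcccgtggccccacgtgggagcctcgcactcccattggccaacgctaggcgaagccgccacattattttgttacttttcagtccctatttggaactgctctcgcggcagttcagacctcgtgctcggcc
Tle6, chr10:81597318-81597617, minus strand: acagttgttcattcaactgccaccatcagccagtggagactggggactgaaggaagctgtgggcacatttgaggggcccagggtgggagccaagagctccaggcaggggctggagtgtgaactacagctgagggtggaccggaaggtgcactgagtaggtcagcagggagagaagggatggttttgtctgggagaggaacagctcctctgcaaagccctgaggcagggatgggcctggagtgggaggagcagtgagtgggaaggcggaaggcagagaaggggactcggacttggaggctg
Dnmt1, chr9:20952930-20953229, minus strand: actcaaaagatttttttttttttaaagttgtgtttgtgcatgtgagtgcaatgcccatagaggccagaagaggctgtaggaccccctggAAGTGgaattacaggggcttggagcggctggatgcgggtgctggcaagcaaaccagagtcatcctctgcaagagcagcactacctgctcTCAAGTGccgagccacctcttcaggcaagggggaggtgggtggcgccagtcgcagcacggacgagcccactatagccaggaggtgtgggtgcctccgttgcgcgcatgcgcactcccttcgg
Dnmt3b, chr2:153649199-153649498, plus strand: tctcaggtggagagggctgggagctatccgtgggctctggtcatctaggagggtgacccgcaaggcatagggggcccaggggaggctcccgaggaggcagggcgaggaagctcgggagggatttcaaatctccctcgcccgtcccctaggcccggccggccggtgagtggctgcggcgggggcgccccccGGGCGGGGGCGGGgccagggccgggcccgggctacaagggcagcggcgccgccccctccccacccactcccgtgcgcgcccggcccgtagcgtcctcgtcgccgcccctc

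In the Tle1 window the summit is base 36, in the Tle6 window base 209 and in the Dnmt1 window base 274. The Tle3 summit lies 110 bases after its start site and so falls past the end of the window. A summit inside a window was found for 3 of the 9 genes, against 7.73% of the 17491 protein-coding genes with a window. Within 1 kb of a start site it was 4 of 9, against 12.1%. In these counts and shares a gene counted when any of its windows or start sites did, so genes with several had more chances. Tle6 has 2 windows and Dnmt1 has 3, and neither held a summit at its outermost start site.

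Among the TLE genes, Tle3 carried a summit at its start and a stronger one just inside. Tle3 (gene ID 21887, chr9:61372326-61418497) encodes the family member known to act with NKX2.2 in beta cells. The first summit, at chr9:61372476, had a score of 18.7 and rank 2776. The second, at chr9:61377952, lay 5.59 kb after the start site and had a score of 28.5 and rank 1770. Both scores were above the median of the list, and the summits were 5476 bp apart. The next nearest protein-coding gene, Uaca, was 492 kb from the first summit. Chromosome 9, which holds Tle3 and Dnmt1, had a summit within 10 kb of 17.5% of its protein-coding genes. This was the lowest share among the 6 chromosomes with genes of the set. The others had 27.4% to 31.1%, against 25.8% over all protein-coding genes.

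Tle4 had the highest-scoring summit of the set, deep inside the gene. Tle4 (gene ID 21888, chr19:14448072-14598183) spans 150 kb and encodes another full-length Groucho corepressor. Its only summit, at chr19:14502402, lay 94.8 kb after the nearer of its 2 annotated start sites, with a score of 32.0 and rank 1528. No summit lay within 1 kb of either start site. The nearest start site of any gene to this summit belonged to the lncRNA Gm8630, 66.5 kb away.

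Tle1 had weaker summits at both ends of the gene. Tle1 (gene ID 21885, chr4:72109945-72200989) is also a full-length family member. The summit at chr4:72201108 lay 215 bases before the Tle1 start site, with a score of 12.1 and rank 4158. It lay 136 bases before the start site of the lncRNA C630043F03Rik on the opposite strand, so it falls between divergent starts and is closer to that of the lncRNA. The second summit, at chr4:72122532, was 78.4 kb after the start site with a score of 6.60, and 17.8% of the list's summits scored lower.

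The Tle2 and Tle6 genes overlap, and the same summits count for both. Tle6 (gene ID 114606, chr10:81590904-81601185) encodes a divergent family member best known from the oocyte, and Tle2 (gene ID 21886, chr10:81574739-81592581) a full-length one. The genes lie on opposite strands with their 3′ ends overlapping by 1678 bp, and Tle5, which encodes a short Groucho-related protein, lies 8.37 kb from the 5′ end of Tle2. A pair of summits, 637 bp apart, lay inside Tle6 at chr10:81596772 and chr10:81597409, with scores of 14.7 and 10.7. The second was 42 bases before the inner of the 2 start sites of Tle6, and the first 595 bases after it. The lncRNA Gm32024 covers both positions. The outer start site of Tle6 had no summit within 1 kb.

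The remaining summits of this cluster lay outside the TLE genes. The summit at chr10:81568546, with a score of 12.0, was 2.17 kb from Tle5 and 6.19 kb from Tle2, and 500 bases before the start of the lncRNA Gm31936. The summit at chr10:81606561, with a score of 5.26 and rank 6569, was the weakest of the set and lay 5.38 kb from Tle6 in the transcribed pseudogene BC025920. Tle2 itself held no summit. Its count of 3 summits within 10 kb rests on those in Tle6 and beside Tle5, and when each summit was given only to its nearest protein-coding gene, Tle2 had none. Among all protein-coding genes, 2.02% had 3 or more summits within 10 kb. Tle2 and Tle6 each had 13 summits within 500 kb of the gene's middle, where 91.7% of protein-coding genes had fewer. A much stronger summit on the same chromosome, with a score of 629.7 and rank 20, lay inside Nfic, 167 kb from Tle2, too far to be counted.

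Hdac1 and Hdac2 had no summit within 50 kb. For Hdac1 (gene ID 433759, chr4:129516104-129542646) the nearest was 58.0 kb away, inside the translation factor gene Eif3i, with a score of 26.3. Of the 5 summits on that side between 58.0 and 98.4 kb from Hdac1, the highest, with a score of 80.2, lay in Dcdc2b. Hdac1 thus lay in a stretch of chromosome with many summits, 10 within 500 kb of its middle, where the median protein-coding gene had 4. For Hdac2 (gene ID 15182, chr10:36974297-37001889) the nearest summit was 139 kb away, beside Marcks and in the lncRNA 5930403N24Rik, with a score of 53.3. Hdac2 had 2 summits within 500 kb of its middle. The Hdac2 promoter window was 69.7% GC, above 89.9% of all windows, with 36 CpG sites and no match to any of the 4 motifs.

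The 3 DNA methyltransferase genes differed from each other in where NKX2.2 summits lay. Dnmt3a (gene ID 13435, chr12:3801559-3914443), the de novo enzyme known to act with NKX2.2 in beta cells, held 1 summit at chr12:3887755 with a score of 31.7 and rank 1556, the second highest of the set. It lay 80.8 kb after the first of the 3 annotated start sites but 3.99 kb before the last of them, and inside the overlapping lncRNA Gm31623. A further pair of summits, at chr12:3758342 and chr12:3761806, counted for Dnmt3a at 50 kb but lay inside Dtnb, with scores of 6.79 and 7.58. No start site of Dnmt3a had a summit within 1 kb.

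Dnmt1 (gene ID 13433, chr9:20907206-20959888), the maintenance enzyme, held a single summit of low score. At chr9:20952956, with a score of 8.86 and rank 5246, it lay 23 bases after the middle of the gene's 3 annotated start sites, 6.93 kb after the outermost. The innermost start site also had this summit within 1 kb, and its window, of 69.7% GC, held no NKX2 core. Of the summits in the list, 28.8% scored lower. The Dnmt1 summit, at base 274, was the only summit of the set in a window with an NKX2 core. The matches were AAGTG at bases 90 to 94 and TNAAGTG at bases 179 to 185, both on the gene's strand. Dnmt1 had 9 summits within 500 kb of its middle, where 78.1% of protein-coding genes had fewer. Dnmt3b (gene ID 13436, chr2:153649411-153687730), the other de novo enzyme, stood farthest from NKX2.2 summits. The nearest was 304 kb away, and 74.0% of protein-coding genes had a nearer one. Dnmt3b had 1 summit within 500 kb of its middle, the fewest in the set together with Tle4.

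**Figure D2:**
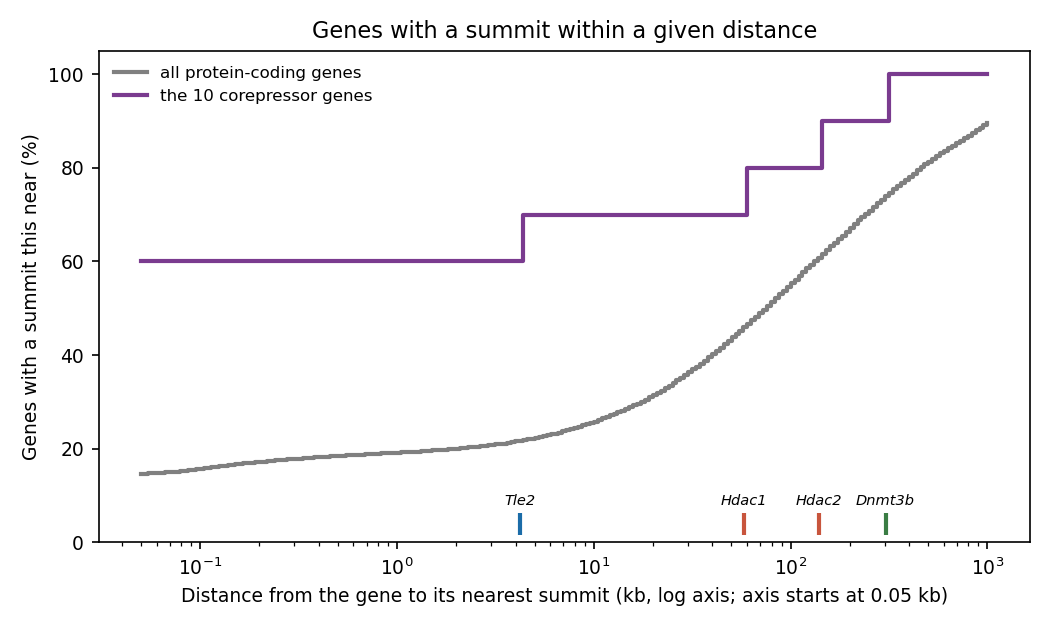
Distance from a gene to its nearest NKX2.2 summit. The horizontal axis is the distance in kb on a log scale and the vertical axis the percent of genes with a summit at most that far, for all protein-coding genes in grey and the 10 genes in purple, with ticks at the 4 genes that hold no summit inside. The purple line starts at 6 of 10 genes, reaches 7 at Tle2 and stays there until Hdac1 at 58.0 kb.

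The summits of the set ranked between 1528 and 6569 among the 7384 of the list. The 13 scores ran from 5.26 to 32.0 with a median of 12.0, and 5 of them were above the list median of 13.7. All 13 were at least 5, and 8 were at least 10. In the list, 1527 summits, 20.7%, scored higher than the best of the set. The 8 summits inside the genes had a median of 16.7. The summits in Tle4, Dnmt3a and the second in Tle3 were above the upper quartile of the list, 27.7. The 3 highest, in Tle4, Dnmt3a and Tle3, all lay inside a gene and more than 1 kb from a start site of any gene. The 6 summits within 1 kb of a start site of any gene had scores of 8.86 to 18.7. In the whole list the difference in score between these places was small, with a median of 12.6 for the 2137 summits within 1 kb of a start site and 14.1 for the 2822 elsewhere in protein-coding genes.

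**Figure D3:**
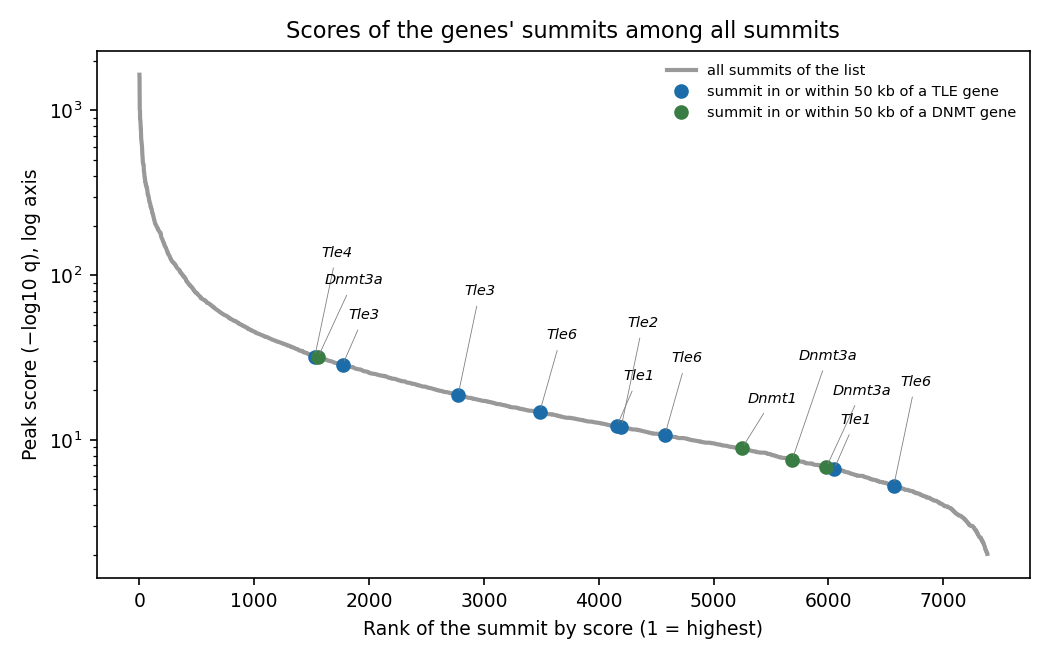
Peak scores of all 7384 summits in order of rank, on a log axis, with the 13 summits in or within 50 kb of the set marked and labelled with the nearest gene of the set. The points lie between rank 1528 (Tle4) and rank 6569 (Tle6), and the 3 highest lie above the upper quartile score of the list, 27.7.

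Longer genes more often had a summit near them in the whole list, and the genes of the set differ in length. Among all protein-coding genes, divided by length into 4 classes of equal number, the share with a summit within 10 kb was 14.0% in the shortest class, 25.9% and 27.2% in the next and 36.1% in the longest, which starts at 44.3 kb. The set had 5 genes in the longest class, Tle1, Tle3, Tle4, Dnmt3a and Dnmt1, and each had a summit inside, against 27.8% of that class. Of the 4 genes in the class below, Tle2, Hdac1, Hdac2 and Dnmt3b, only Tle2 had a summit within 10 kb and none had a summit inside, against 13.3%. Tle6, a gene of 10.3 kb in the class below that, had 2 inside, where 9.36% of genes had any. The part of gene length in the counts was not tested.

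Most promoter windows of the set were rich in GC, and 1 of the 15 held the NKX2 core. The 15 windows had a median of 69.7% GC and 28 CpG sites, against 52.7% and 7 for all 32851 windows and 61.7% and 22 for the 1624 windows holding a summit. Windows with a summit within 1 kb had 53.7% to 73.7% GC, and the 4 windows above that, 3 of Dnmt3a and that of Dnmt3b, had none. The windows of Tle1 (73.7% GC) and of Dnmt3b (76.0%) were close in GC, and only the first held a summit. The 3 windows with the most CpG sites, 2 of Dnmt3a and 1 of Tle4, had none within 1 kb, and the inner Tle6 window held a summit with 3 CpG sites.

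**Figure D4:**
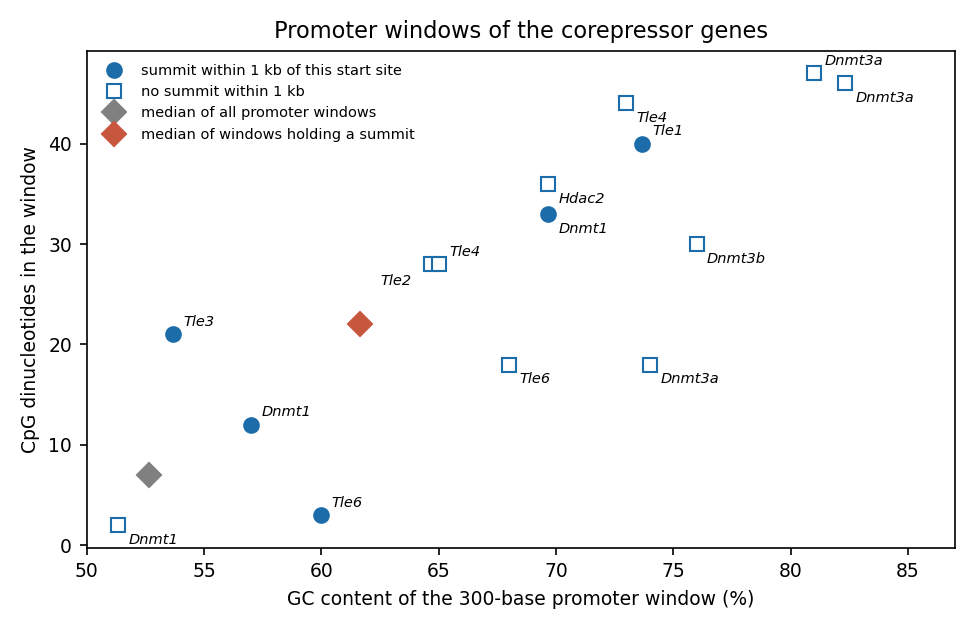
GC content in percent (horizontal) and number of CpG sites (vertical) of the 15 promoter windows, each 300 bases long, filled where a summit lay within 1 kb of that start site and open where none did. Diamonds are medians of all windows and of windows holding a summit. Filled points run from Tle3 at 53.7% to Tle1 at 73.7%, while open points run from a Dnmt1 window at 51.3% to a Dnmt3a window at 82.3% and include the 4 windows of highest GC.

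AAGTG occurred in 1 of the 15 windows, that of Dnmt1, while 46.4% of all windows held it. In windows that held a summit the share was 45.1%. Because the core is rich in A and T, the windows were also split at 60% GC, a value chosen after the counts were seen. Of the 12 windows of the set at or above it, 0 held AAGTG, against 34.0% of all such windows. TNAAGTG was found in the same Dnmt1 window, against 11.5% of all windows. GGGTGTGG was found in 1 window, that of the outer Tle6 start site, against 3.56%. GGGCGGG was found in 9 of the 15 windows of the set, against 25.6% of all windows and 52.5% of windows holding a summit. All 9 were among the 12 windows with at least 60% GC, where 62.0% of all windows held it. Every window of Dnmt3a is among the 9, and its overlapping windows share matches. Only 3 of the 13 summits lie inside a window, so these counts describe promoters and say nothing about the letters under the other summits.

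The partners of these proteins were counted in 6 lists of 60 other corepressor genes, also chosen with earlier results of these data known. Within 10 kb, 27 of the 60 had a summit, 45.0% beside 25.8% of all protein-coding genes. The NuRD complex had 6 of 9, Polycomb 6 of 12, the SIN3, NCoR and CoREST list 7 of 16, the other HDAC genes 4 of 9, and the other DNA methylation genes 3 of 12. Tle5 had the summit it shares with Tle2, and Tle7 had none. No list was tested against the genome or against another.

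Several of these genes carried summits with higher scores than any in the set. In the HDAC family, the class IIa gene Hdac4 held a summit with a score of 151 at chr1:92030702, and Hdac11 had one with a score of 113.9 lying 9.43 kb from the gene, while Hdac7 and Hdac5 had highest scores of 15.0 and 4.09. Hdac3, Hdac6, Hdac8, Hdac9 and Hdac10 had none within 10 kb, like Hdac1 and Hdac2. Most protein-coding genes had none either, as 25.8% of them had a summit within 10 kb. Gatad2a, a scaffold of NuRD, had the highest score of all 6 lists, 280.1, at chr8:69996357 and 27 bases after a start site. Chd3 of the same complex held a summit (16.5). The summits of Mta2 (36.3) and Chd4 (6.71) lay 1.41 kb and 7.32 kb outside the gene. Rbbp4 encodes a histone chaperone that works with HDAC1 and HDAC2. It had a summit with a score of 30.6 at 66 bases before its start site. This summit was also only 0.096 kb from the neighbouring gene Zbtb8os.

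In the list of SIN3, NCoR and CoREST corepressors, Ctbp2 had a highest score of 58.0, while Ctbp1 had 16.4, Tbl1x 11.6 and Sin3a 8.37. These summits lay inside the gene except that of Ctbp1, 0.706 kb outside it. Of the Polycomb genes, Jarid2 had a highest score of 45.0, inside the gene. Cbx2 and Cbx8 shared a summit with a score of 39.6, lying 9.89 kb from Cbx2 and 0.248 kb from Cbx8. The histone methyltransferase genes Ezh2 and Ezh1 had 31.8 and 15.8, at 0.155 kb and 1.03 kb outside the gene. Among the other DNA methylation genes, the demethylase gene Tet3 had a highest score of 20.4, inside the gene. Uhrf1, whose protein guides DNMT1, had 20.6 and Mbd4 had 19.3, at 2.40 kb and 0.197 kb outside the gene. With each summit given to its nearest protein-coding gene, only Tet3 kept one.

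**Figure D5:**
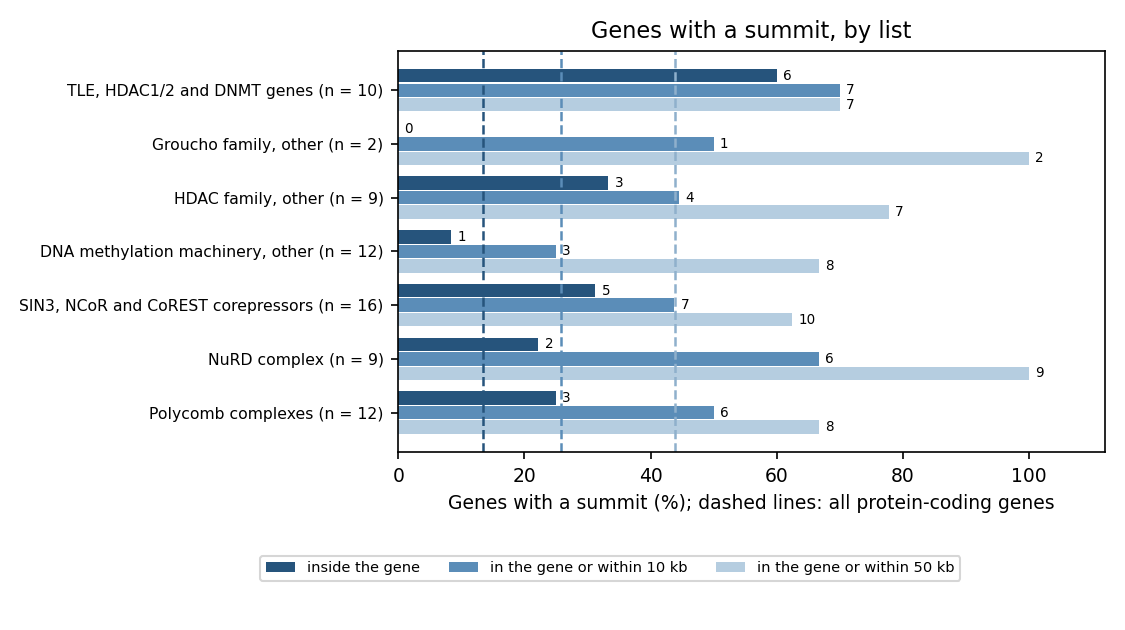
Percent of genes with a summit inside the gene, within 10 kb and within 50 kb, for the 10 genes and for 6 lists of other corepressor genes, with the number of genes at the end of each bar. Dashed lines are the same shares over all protein-coding genes, 13.4%, 25.8% and 43.8%. The 10 genes have the same count, 7, at 10 kb and at 50 kb, while NuRD goes from 6 to 9 of 9 genes.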

How the data were processed

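NKX2.2 ChIP and input samples of alphaTC6 cells, 2 of each, were grouped by their titles. For all 4 samples together the authors deposited 1 summit list, and per the labels the caller was MACS2. Its values are taken as −log10 q-values as MACS2 writes them in the deposited file. The submitters' processing notes also name FastQC, Bowtie2 and mm10, the GRCm38 assembly. Versions, duplicate handling and whether replicates were pooled are not given in the sources used here. Pooling and duplicates can change which peaks are called and how high they score. Depth per sample is unknown.

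Summit positions (start plus 1) were compared with RefSeq genes and promoter windows of GRCm38.p6 in Python 3.11.15 with numpy 2.4.6, pandas 2.3.3 and matplotlib 3.10.9. A gene counted when a summit lay in it or within 10 kb or 50 kb. Strand came from the promoter table. Exons, introns and UTRs were not distinguished. Of the summits, 7380 lay on the chromosomes used. The genes and lists were chosen with earlier results of these data known. Named were the 10 genes, the nearest protein-coding gene of each summit within 50 kb of them, and in each other list at most 5 genes by highest score, of which 1 is not reported here. Other names (neighbours of Hdac1, Hdac2 and Rbbp4, lncRNA genes, genes without a summit and Nfic) were added after their values were seen. Alternatives changed the score minimum, the distance, merging within 500 bp, the gene set and the assignment to genes. Counting was tested on simulated data.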

Additional observations from a re-analysis of the deposited data

How the results depend on the processing

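The count of 7 genes with a summit within 10 kb stayed between 6 and 7 under every alternative run (score minimums of 5 and 10, merging within 500 bp, 5 kb, 50 kb, inside the gene, nearest gene only). Dnmt1 was the gene lost at a score minimum of 10 and Tle2 the gene lost inside genes and under nearest-gene assignment. Within 50 kb the count was 6 to 7, and within 100 kb it was 8 with Hdac1, where 55.3% of all protein-coding genes had a summit. The share of all protein-coding genes moved with the setting, to 18.2% at a score minimum of 10, 22.3% at 5 kb and 19.2% with nearest gene only. Of 117 alternative values, 104 were within 1.5 times the main value (for highest scores, equal to it). A score minimum cannot change a gene's highest score except by removing it. Removed ones (Dnmt1 at a minimum of 10, Tle2 with nearest gene only) are not among the 117. The 104 thus include values fixed in advance and do not measure stability. At a score minimum of 10, 8 summits were left within 50 kb, and 4 genes of the SIN3, NCoR and CoREST list had one. Counting only inside genes gave 13.4% of all protein-coding genes, 0 genes of the Groucho list, 1 of DNA methylation, 2 of NuRD and 3 of Polycomb. At 50 kb it was 43.8%, with 2 Groucho, 7 HDAC and 8 DNA methylation genes. With each summit given to its nearest gene, 1 DNA methylation gene was left. NuRD then had 4 genes, Polycomb 5 and the SIN3, NCoR and CoREST list 6, while the other HDAC genes stayed at 4 and Groucho at 1. Over all annotated genes, not only protein-coding ones, the share was 16.7%. These follow from how each alternative is built.

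No paired analysis was possible because replicates have no values of their own in the deposited summits, and no replicate was left out for the same reason. Motifs around summits were not run, as no genome sequence was used here.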
